A study of Mus musculus with 6 samples.

Results

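Voltage-gated potassium channel genes were examined in whole retina of C57BL/6 mice after a saline or a microbead injection. Members were chosen by name, as the *Kcna*, *Kcnb*, *Kcnc*, *Kcnd*, *Kcnf*, *Kcng*, *Kcnh*, *Kcnq*, *Kcns* and *Kcnv* genes and the *Kcnab* beta subunits, and had to reach 10 counts in at least 3 of the 6 libraries. Of the 31169 genes in the count table, 43 carried such a name and 37 passed, of which 34 encode pore-forming subunits and 3 encode beta subunits. The 6 that did not pass were *Kcna7*, *Kcna10*, *Kcnh3*, *Kcnh4*, *Kcng3* and *Kcnv1*, with 0 to 23 counts in any library. Nearest to the limit were *Kcnq1*, which passed with 20, 22 and 11 counts in 3 libraries, and *Kcnv1*, which reached 10 counts in 2 libraries only, with 14 and 13.

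Both groups were male mice of the same strain, injected into the anterior chamber of both eyes at 1 month of age, with retinas taken 4 weeks later, at 2 months. By the sample labels, 1 group (3 libraries) received 1 μl of saline and the other (3 libraries) 1 μl of microbeads of 15 μm. The study's methods state a larger volume for both. Such microbeads lodge in the drainage tissue of the eye and raise intraocular pressure (IOP). The study counts its RNA sequencing samples as retinas, and more of them in each group than the libraries analysed here. The labels do not say which retinas came from the same animal, so p-values measure only the spread between these libraries. The saline libraries shared 1 prefix in their names and the microbead libraries a different one, and this prefix cannot be told apart from what was injected. In whole retina, fewer cells of a type and less RNA per cell cannot be told apart either.

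Voltage-gated potassium channels open when the membrane depolarizes and let potassium leave the cell, which ends the action potential and sets how fast a neuron can fire again. Pore-forming subunits assemble into a ring around a shared pore, and cytoplasmic beta subunits, which resemble aldo-keto reductases, bind the *Kcna* subunits and change their gating and their transport to the membrane. The *Kcnf*, *Kcng*, *Kcns* and *Kcnv* products, here called modifiers, form no working channel alone and assemble with *Kcnb* subunits. In the retina, the product of *Kcnv2* belongs to a channel of the photoreceptor inner segment that shapes the light response, whereas *Kcna*, *Kcnc*, *Kcnd* and *Kcnq* channels are best known from spiking neurons, among them the retinal ganglion cells (RGCs).

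The part of the sequence that the pore-forming members share is the selectivity filter, the stretch of the pore loop that lets potassium pass and holds back sodium. It was found exactly once in the coding sequence of each of the 34 pore-forming members and in 0 of the 3 beta subunits. The stretches below, read from the GENCODE transcripts on GRCm38, are shown because these members are among those with the highest levels of their families. Each runs 5′ to 3′ over 45 coding bases, with the 5 filter codons in capitals.
Kcnv2: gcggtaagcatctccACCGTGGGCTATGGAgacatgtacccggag
Kcna5: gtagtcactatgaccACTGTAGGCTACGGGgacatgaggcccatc
Kcng4: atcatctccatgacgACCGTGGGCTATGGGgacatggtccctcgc
Kcnh2: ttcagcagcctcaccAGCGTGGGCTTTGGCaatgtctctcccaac

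The 45-base stretch of *Kcnv2* spans the only intron of that gene, from exon 1 to exon 2, at chr19:27324155-27333683 on the plus strand. The *Kcna5* stretch lies in the single exon, at chr6:126533730-126533774 on the minus strand. That of *Kcng4* lies in exon 3 of 4, at chr8:119625895-119625939 on the minus strand. The *Kcnh2* stretch lies in exon 7 of 15, at chr5:24325540-24325584 on the minus strand. The fourth filter codon was TAC or TAT, for tyrosine, in 28 members and TTC or TTT, for phenylalanine, in the 6 *Kcnh* members, the ether-à-go-go family.

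The beta subunit genes have no filter, and the pair that moved in opposite directions is shown by its most alike coding stretch. *Kcnab2* (chr4:152395156-152396765, minus strand, exons 11 to 12 of 16) and *Kcnab3* (chr11:69330816-69331140, plus strand, exons 9 to 10 of 14) share 82 of the 100 bases printed here, and the 18 bases that differ are in capitals.
Kcnab2: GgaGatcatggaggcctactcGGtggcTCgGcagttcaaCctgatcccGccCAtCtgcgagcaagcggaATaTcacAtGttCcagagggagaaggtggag
Kcnab3: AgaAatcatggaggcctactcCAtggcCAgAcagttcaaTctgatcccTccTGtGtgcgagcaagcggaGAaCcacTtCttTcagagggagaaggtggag

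Over the whole coding sequence the aligned bases of *Kcnab2* and *Kcnab3* were 70.0% identical, and their longest identical run was 18 bases. This is shorter than a read of 100 bases.

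The libraries held 36085737, 46481382 and 37546884 counts after saline and 19834366, 13574949 and 15647739 after microbeads, so the microbead values rest on fewer counts. Values are given in counts per 1000000 (CPM) of the scaled library size or, where genes are set against each other, in CPM per kilobase of exon (RPKM). The tissue label was met: 8 rod genes summed to between 54024 and 80898 CPM in the 6 libraries, and 4 muscle genes to at most 6.43 CPM.

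One library stood apart. In saline replicate 1, all 8 RGC marker genes were below 50% of the mean of the other saline libraries, with a median ratio of 0.24, and their sum was 326.7 CPM against 959 and 1236 CPM in saline replicates 2 and 3 and 823 to 1104 CPM after microbeads. The 4 pigment epithelium markers summed to 6.93, 32.4 and 147 CPM in saline replicates 1 to 3, and to 69.3 to 83.0 CPM after microbeads. Rod genes did not show this, with a median ratio of 0.98. The potassium channel members did: saline replicate 1 was the lowest of the saline libraries for 31 of 37 members, or 83.8%, against 32.8% of all tested genes. Its ratio to the mean of the other saline libraries was below 0.5 for 16 of the 37 members (43.2%) and for 4.74% of all tested genes. Among the other cell types it was the lowest saline library for 6 of 6 amacrine cell markers (median ratio 0.58), 3 of 3 horizontal cell markers (0.52), 5 of 6 Müller glia markers (0.67) and 5 of 6 bipolar cell markers (0.79). The 4 microglia markers went the other way, summing to 67.7, 27.6 and 42.6 CPM in saline replicates 1 to 3. The log2 fold changes without saline replicate 1 are given together further on, and what its marker levels contribute to the members' values was not tested.

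**Figure D1:**
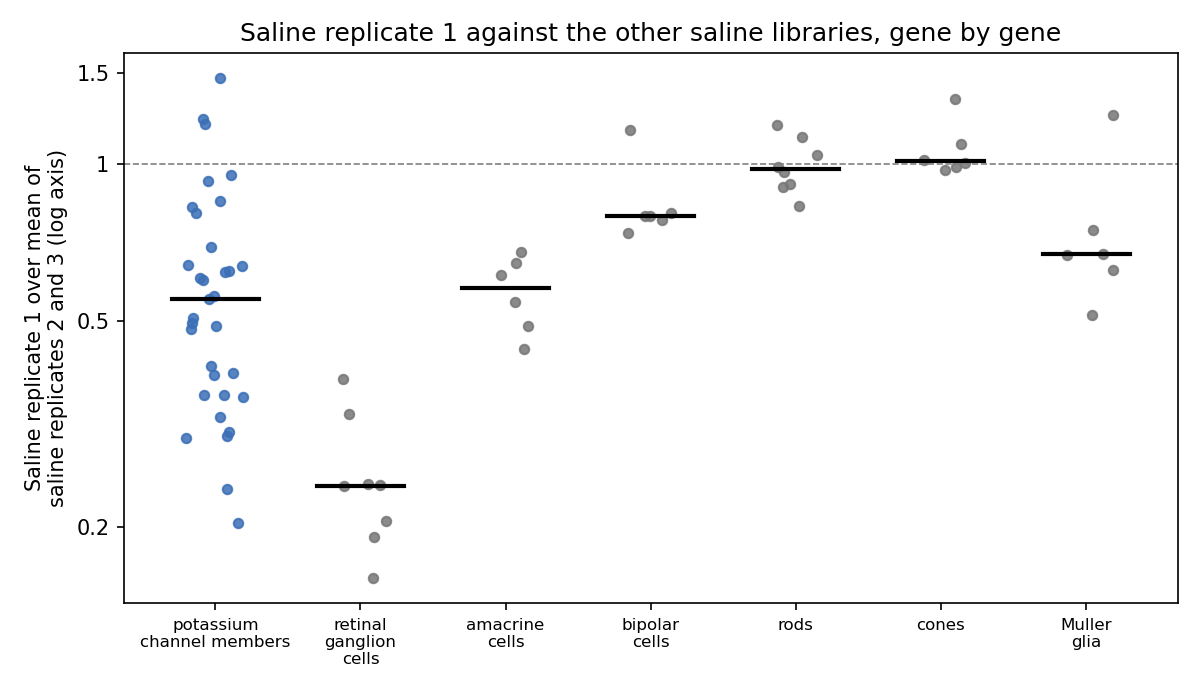
Ratio of saline replicate 1 to the mean of saline replicates 2 and 3 (log axis), 1 point per gene, with the median as a bar, for 33 potassium channel members and for marker genes of 6 retinal cell types. The members' median is 0.55, beside 0.24 for RGC, 0.58 for amacrine cell, 0.67 for Müller glia, 0.79 for bipolar cell, 0.98 for rod and 1.01 for cone markers.

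*Kcnv2* was among the most abundant members of the saline-injected retina per length. It stood at 132, 116 and 104 RPKM in the 3 saline libraries, with a mean of 117 ± 13.9 RPKM (SD, n = 3), and made up 26.3% ± 4.74 of the summed RPKM of the 34 pore-forming members.

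The beta subunit gene *Kcnab2* was lower, at 70.0, 81.8 and 92.0 RPKM, and then *Kcna5*, a delayed rectifier subunit, at 38.5 ± 4.04 RPKM, and *Kcnh2*, the gene of the ERG channel of the heart, at 24.7 ± 6.12 RPKM. *Kcnab3* (15.5 ± 3.87 RPKM) and *Kcnc1* (15.0 ± 4.65 RPKM) were lower still and lay within 1 SD of each other. *Kcnd3*, *Kcna2* and *Kcng4*, at 11.2 ± 2.70, 10.8 ± 3.16 and 10.4 ± 1.38 RPKM, also could not be ordered. The lowest was *Kcnq1*, the cardiac and inner ear member of its family, at 0.094 ± 0.064 RPKM.

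**Figure D2:**
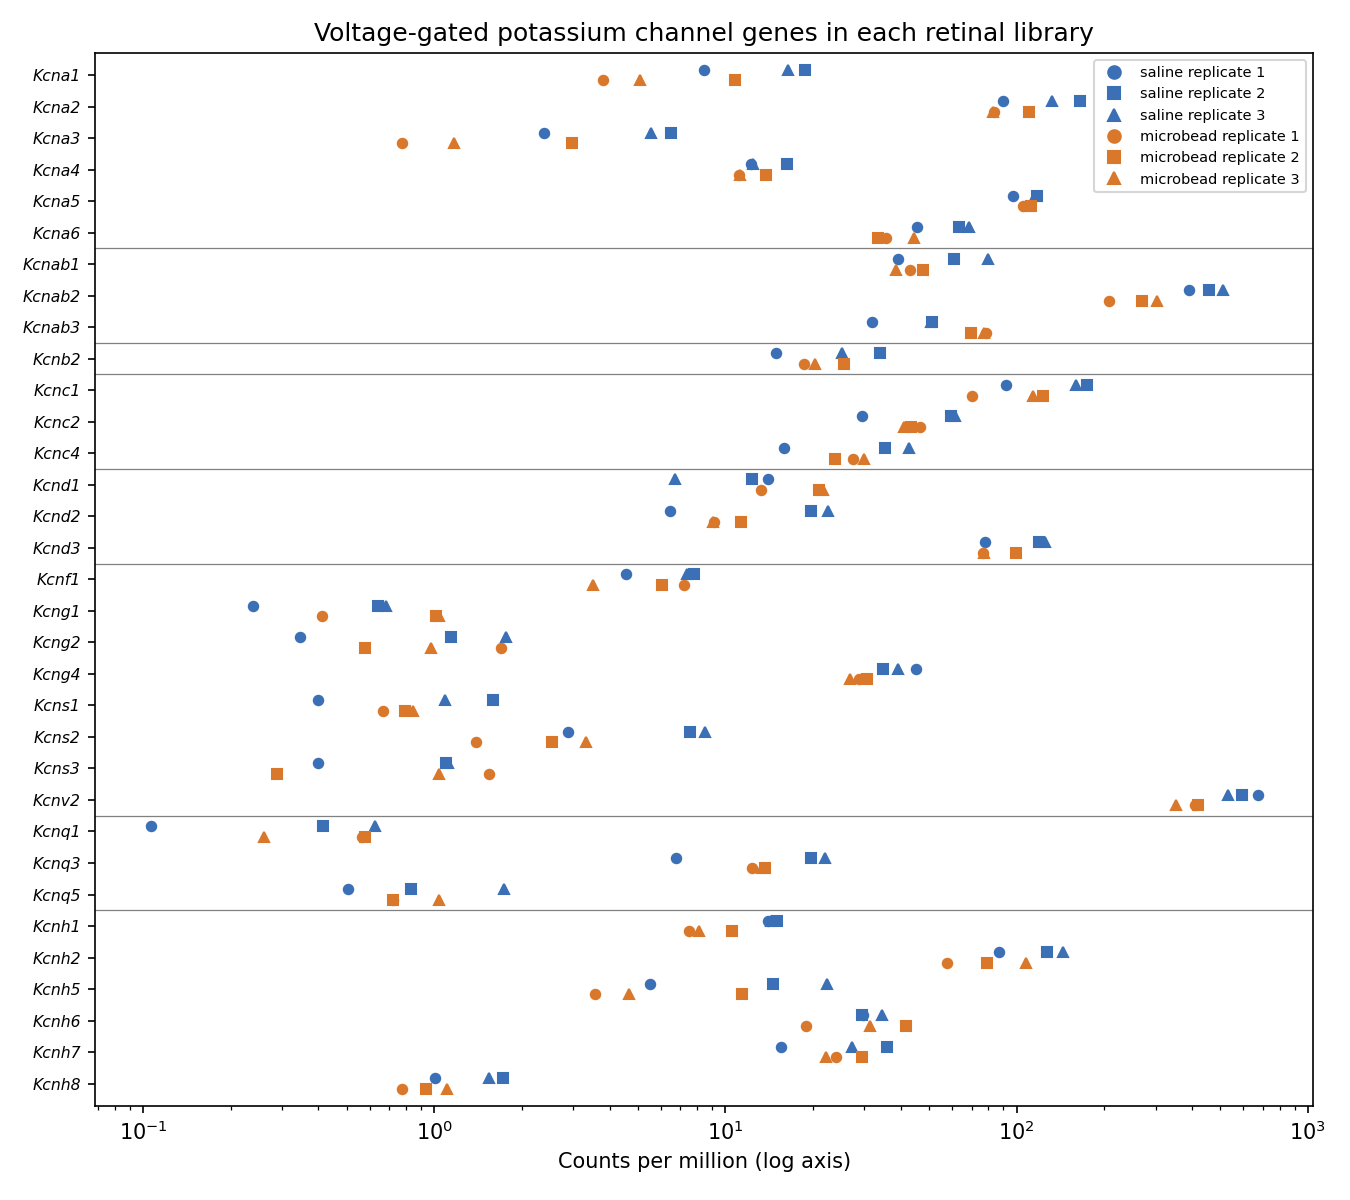
CPM (log axis) of 33 members in each of the 6 libraries, saline in blue and microbead in orange, with lines between families (*Kcna*, *Kcnab*, *Kcnb*, *Kcnc*, *Kcnd*, modifiers, *Kcnq*, *Kcnh*). *Kcnv2* lies to the right of all other pore-forming members plotted, and the saline replicate 1 circle is the leftmost saline point for 29 of the 33.

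After microbead injection, 2 of the 37 members passed the test, and both were beta subunit genes: *Kcnab2* fell and *Kcnab3* rose. None of the 34 pore-forming genes passed with edgeR's quasi-likelihood test, although 10 of them had an unadjusted p under 0.05 (12 of all 37 members, against 31.4% of all tested genes). *Kcnv2* (1.52-fold lower) fell just short of the threshold, with an adjusted p of 0.0505 in that test. The members called were 5.41% of the 37, against 12.8% of all 17707 genes tested, a smaller share; the difference between these shares was not tested. Called lower was 1 member, against a background of 6.31%, and called higher 1, against 6.46%.

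Below 0 were 28 of the 37 log2 fold changes (75.7%), against 52.1% of all tested genes, and the median was -0.30 against -0.03 over all genes. The groups did not overlap for 7 of the 37 members, against 37.8% of all tested genes. Lower without overlap were 6 of the 37, against 18.9% of all tested genes, and higher 1 of the 37, against 18.8%. Upper-quartile scaling moved the median of the members to -0.26 and that of all genes to 0.01. Without saline replicate 1 the members' median was -0.52, and 32 of 37 lay below 0. Without saline replicate 2 it was -0.14, and 24 of 37 lay below 0.

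**Figure D3:**
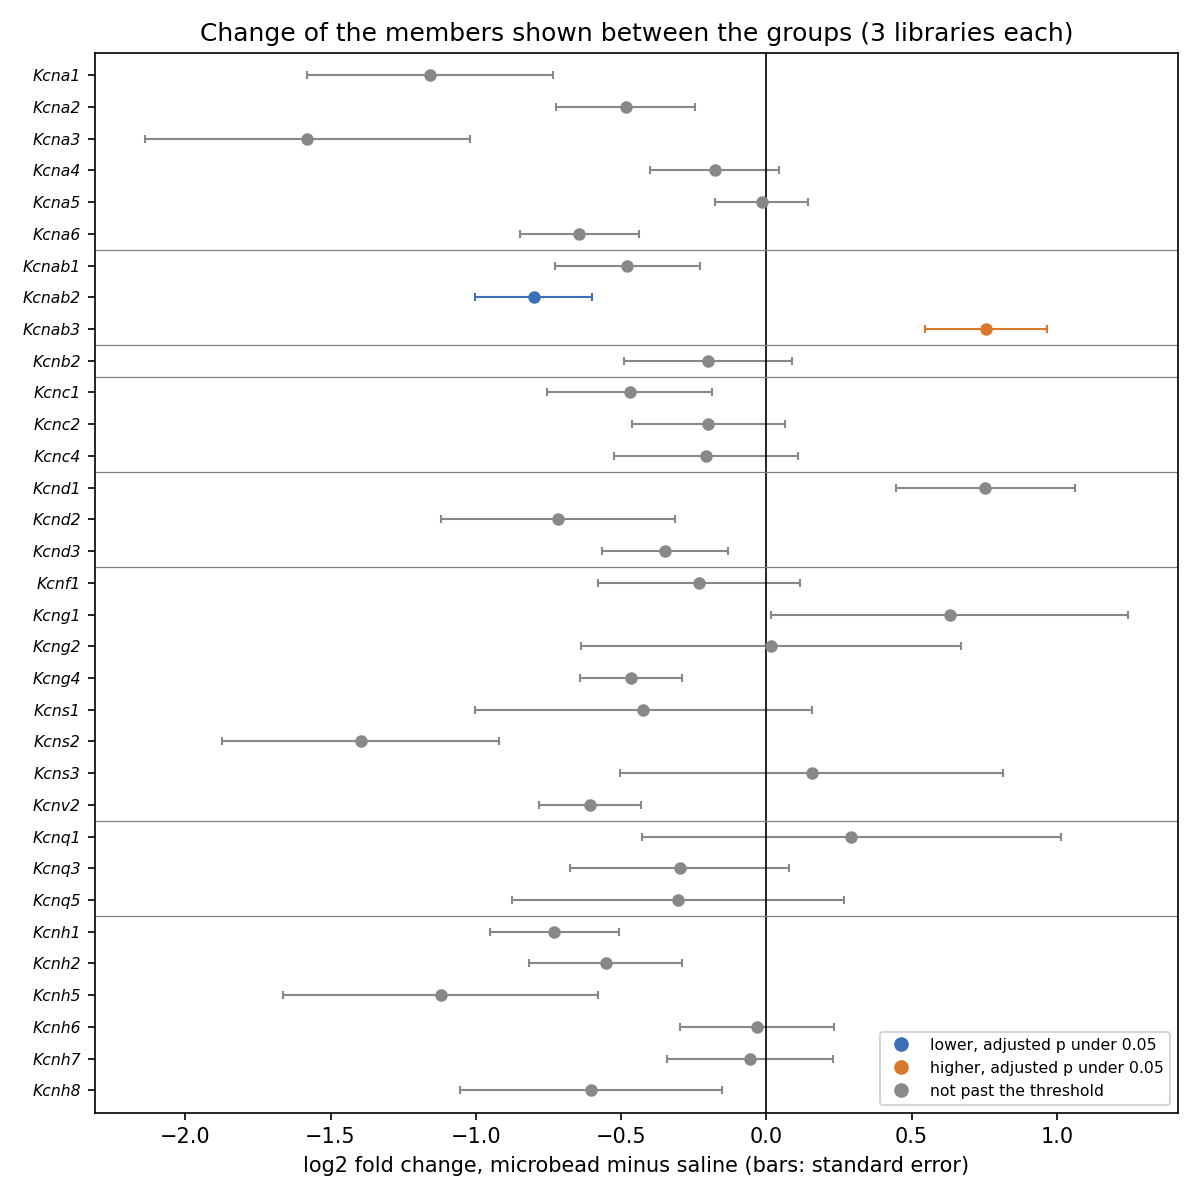
Log2 fold change of 33 members, microbead minus saline, with its standard error (edgeR, 3 libraries a group), ordered by family as in the plot of CPM by library. *Kcnab2* at -0.80 and *Kcnab3* at 0.75 are the coloured points past the threshold, and 27 of the 33 points lie left of 0.

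Summed CPM by family is given as a description, with no test. The modifiers summed to 727, 649 and 591 CPM after saline and 451, 462 and 389 CPM after microbeads, and the *Kcnab* genes to 462, 568 and 644 CPM and 329, 387 and 419.7 CPM, both without overlap (log2 ratio of the means -0.59 and -0.56). These 2 sums rest mainly on 1 gene each. *Kcnv2* held a mean of 600 of the 656 CPM of the modifiers after saline and 394 of 434 CPM after microbeads. *Kcnab2* held 453 of the 558 CPM of the *Kcnab* genes after saline and 260 of 378 CPM after microbeads, while *Kcnab3* rose. The sums of the *Kcna*, *Kcnd* and *Kcnh* genes overlapped between the groups, with log2 ratios of -0.35, -0.25 and -0.43. Without saline replicate 1 the log2 ratios were -0.52 for the modifiers, -0.68 for *Kcnab*, -0.51 for *Kcna*, -0.44 for *Kcnd* and -0.61 for *Kcnh*.

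The beta subunits were the family with calls. *Kcnab2*, the most common beta subunit gene of the brain, stood at 391, 456 and 513 CPM in the saline libraries and at 207, 269 and 304 CPM in the microbead libraries. Its highest microbead value lay under its lowest saline value. The gene fell by 42.6% (log2 fold change -0.80, SE 0.20, adjusted p = 0.034, edgeR).

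*Kcnab3*, a relative of *Kcnab2* expressed mainly in the nervous system, stood at 31.7, 51.2 and 50.7 CPM after saline and at 78.5, 69.8 and 77.2 CPM after microbeads. The groups did not overlap, in the opposite direction to *Kcnab2*. It rose by 68.7% (log2 fold change 0.75, SE 0.21, adjusted p = 0.046, edgeR). *Kcnab1*, whose product gives *Kcna* channels fast inactivation, stood at 39.3, 60.9 and 79.7 CPM after saline and 43.1, 47.6 and 38.5 CPM after microbeads, with overlap, and did not pass (log2 fold change -0.48, SE 0.25, adjusted p = 0.22).

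Within each library, the ratio of *Kcnab2* to *Kcnab3* RPKM was 6.32, 4.58 and 5.19 after saline and 1.35, 1.98 and 2.02 after microbeads. *Kcnab2* thus remained the higher of the pair in all 6 libraries, by less after microbeads, and this ratio does not depend on how libraries are scaled to each other. The share of *Kcnab3* in the summed *Kcnab* RPKM was 14.9% ± 1.90 after saline and 34.0% ± 4.72 after microbeads, and that of *Kcnab2* 78.6% ± 2.78 and 59.5% ± 5.40 (SD, n = 3). Since the pair was chosen for moving apart, the ratio is a description.

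**Figure D4:**
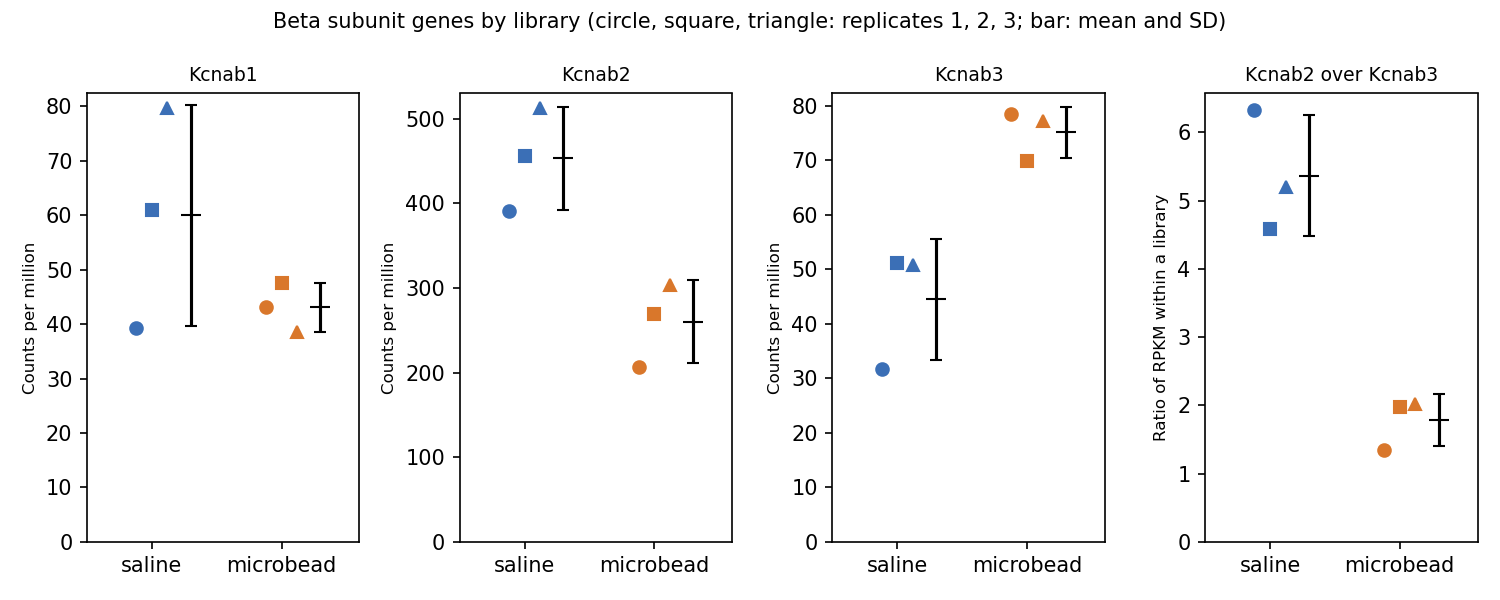
CPM of *Kcnab1*, *Kcnab2* and *Kcnab3*, and the ratio of *Kcnab2* to *Kcnab3* RPKM, in the 3 saline (blue) and 3 microbead (orange) libraries, with mean and SD in black. *Kcnab2* and *Kcnab3* do not overlap between groups, and the ratio lies between 4.58 and 6.32 after saline and between 1.35 and 2.02 after microbeads.

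Both calls were lost when some single libraries were left out. *Kcnab2* stayed past the threshold without saline replicate 1 (adjusted p = 0.027). It was lost without saline replicate 2 (0.11), saline replicate 3 (0.070), or microbead replicate 1 (0.080), 2 (0.091) or 3 (0.090), with adjusted p as given and the log2 fold change between -0.94 and -0.67. *Kcnab3* stayed without saline replicate 3 (0.049). It was lost without saline replicate 1 (0.074) or 2 (0.099), or microbead replicate 1 (0.10), 2 (0.087) or 3 (0.15), with the log2 fold change between 0.56 and 0.86. *Kcnab3* shares 5.13% of its exonic bases with *Kcnab3os* on the opposite strand, which had at most 0.65 CPM.

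None of the 4 *Kcnc* genes, whose fast channels let neurons spike at high rates, passed. *Kcnc1* stood at 91.7, 174 and 159.8 CPM after saline and 70.3, 124 and 113 CPM after microbeads, with overlap (log2 fold change -0.47, SE 0.28, adjusted p = 0.29). *Kcnc2* and *Kcnc4* had log2 fold changes of -0.20 and -0.21, and the latter turned without saline replicate 3 (0.079).

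*Kcnv2*, whose loss in patients causes a cone dystrophy with large rod responses, stood at 673, 595 and 531 CPM after saline and at 409.5, 420.5 and 352 CPM after microbeads. The groups did not overlap (log2 fold change -0.61, SE 0.18, adjusted p = 0.0505, edgeR). *Kcnv2* passed in 3 of the 9 other fits of all libraries. These were DESeq2, limma-voom and no filter, with adjusted p of 0.014, 0.048 and 0.037. In the remaining fits of all libraries its adjusted p reached up to 0.074, with the replicate block. It passed in 0 of the 6 fits with 1 library left out, with edgeR's adjusted p from 0.053 to 0.17.

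Saline replicate 1 was not low for this gene, with a ratio to the other saline libraries of 1.20.

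*Kcnb2*, a delayed rectifier subunit of neurons, ranged from 14.9 to 33.9 CPM after saline and 18.6 to 25.6 CPM after microbeads (log2 fold change -0.20, adjusted p = 0.67), a sign that turned without saline replicate 2 (0.098).

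Among the 8 modifiers 0 passed, 5 had log2 fold changes below 0 and 3 above. *Kcng4*, known as a marker of alpha RGCs and of some bipolar cells, stood at 45.1, 34.6 and 39.2 CPM after saline and 28.7, 30.6 and 26.8 CPM after microbeads, with no overlap (log2 fold change -0.47, SE 0.17, adjusted p = 0.10). *Kcns2* was the modifier with the largest difference, at 2.87, 7.57 and 8.50 CPM after saline and 1.39, 2.53 and 3.31 CPM after microbeads. Only saline replicate 1 fell within the microbead range (log2 fold change -1.40, SE 0.48, adjusted p = 0.081). *Kcnf1*, *Kcng1*, *Kcng2*, *Kcns1* and *Kcns3* lay under 8 CPM in every library, with log2 fold changes from -0.42 to 0.63, and of these 5 only *Kcng1* kept its sign under every alternative run.

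All 6 *Kcna* genes had log2 fold changes below 0, though that of *Kcna5* turned with the scaling, and 0 passed. Of this family, *Kcna1* and *Kcna2* form low-threshold channels that sit along axons and at their initial segments. *Kcna6* had no overlap, at 45.6, 63.2 and 68.4 CPM after saline and 35.5, 33.5 and 44.4 CPM after microbeads (log2 fold change -0.64, SE 0.21, adjusted p = 0.068). Its exons overlap *Gm26673* on the opposite strand over 39.6% of their bases, and *Gm26673* had at most 0.77 CPM.

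*Kcna1*, the subunit mutated in episodic ataxia, stood at 8.45, 18.7 and 16.3 CPM after saline and 3.81, 10.8 and 5.07 CPM after microbeads (log2 fold change -1.16, SE 0.42, adjusted p = 0.096). *Kcna3* was 2.99-fold lower, at 2.39, 6.51 and 5.56 CPM after saline and 0.77, 2.96 and 1.17 CPM after microbeads (log2 fold change -1.58, SE 0.56, adjusted p = 0.089). For both genes the overlap came from saline replicate 1 and microbead replicate 2 alone. With a library left out, the log2 fold change of *Kcna3* ranged from -2.30 without microbead replicate 2 to -1.23 without microbead replicate 1.

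*Kcna2*, a main subunit of myelinated axons, stood at 89.9, 165 and 133 CPM after saline and 83.7, 110.4 and 82.8 CPM after microbeads (log2 fold change -0.48, SE 0.24, adjusted p = 0.20). *Kcna5* stood at 96.8, 118 and 116 CPM after saline and 105, 112 and 109.7 CPM after microbeads (log2 fold change -0.02, SE 0.16, adjusted p = 0.96), and its sign depended on the scaling, turning positive with RLE and upper-quartile scaling. Its mean level per length, 38.5 RPKM after saline and 38.1 RPKM after microbeads, moved less than the SD of the saline libraries. *Kcna4* had a log2 fold change of -0.18.

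The *Kcnd* genes, which carry the transient A-type current, went in both directions and 0 of 3 passed. *Kcnd3*, the highest of them per length, ranged from 77.8 to 125 CPM after saline and from 76.8 to 99.2 CPM after microbeads (log2 fold change -0.35, SE 0.22, adjusted p = 0.30). *Kcnd1* stood at 14.0, 12.3 and 6.73 CPM after saline and 13.3, 20.9 and 21.7 CPM after microbeads (log2 fold change 0.75, SE 0.31, adjusted p = 0.13). *Kcnd2* was among the members on which saline replicate 1 weighed most, with 6.43, 19.6 and 22.5 CPM after saline and 9.16, 11.3 and 9.10 CPM after microbeads (log2 fold change -0.72, adjusted p = 0.25).

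The *Kcnq* genes, which carry the slow M-current that restrains repeated firing, had 0 of 5 calls. *Kcnq3*, a subunit of M-channels, stood at 6.77, 19.6 and 22.0 CPM after saline and 12.4, 13.6 and 13.3 CPM after microbeads (log2 fold change -0.30, SE 0.38, adjusted p = 0.63). *Kcnq1* and *Kcnq5* had log2 fold changes of 0.29 and -0.30, and both signs turned with 1 library left out (-0.15 without saline replicate 1 and 0.30 without saline replicate 3).

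All 6 *Kcnh* genes had log2 fold changes below 0, though *Kcnh6* turned with upper-quartile scaling (0.01) and *Kcnh7* with limma-voom (0.0033), both also with some single libraries left out, and 0 passed. *Kcnh1*, the ether-à-go-go gene, varied little within groups, at 14.0, 15.0 and 14.4 CPM after saline and 7.51, 10.5 and 8.12 CPM after microbeads, with no overlap (log2 fold change -0.73, SE 0.22, adjusted p = 0.059). *Kcnh2* stood at 86.9, 127 and 145 CPM after saline and 57.7, 79.2 and 108 CPM after microbeads, where the groups overlapped through saline replicate 1 and microbead replicate 3 (log2 fold change -0.55, SE 0.26, adjusted p = 0.18). *Kcnh5*, a close relative of *Kcnh1*, stood at 5.52, 14.6 and 22.4 CPM after saline and 3.55, 11.4 and 4.68 CPM after microbeads (log2 fold change -1.12, SE 0.54, adjusted p = 0.19). *Kcnh6* (-0.03) and *Kcnh7* (-0.06) had log2 fold changes near 0. *Kcnh8*, at under 2 CPM, had a log2 fold change of -0.60.

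Without saline replicate 1, 8 members were called lower and 0 higher, against 7.3% of all genes called lower and 7.83% higher. This library had been singled out for low values, also of most members, so these calls are a description. The 8 were *Kcnd2* (log2 fold change -1.10), *Kcns2* (-1.75), *Kcnab2* (-0.90), *Kcna6* (-0.80), *Kcna1* (-1.44), *Kcna3* (-1.91), *Kcnh5* (-1.51) and *Kcnab1* (-0.71), with edgeR's adjusted p from 0.016 to 0.045. They comprise 3 *Kcna* genes and both beta subunit genes that are lower, beside 1 *Kcnd*, 1 *Kcns* and 1 *Kcnh* gene. *Kcnab3* had a log2 fold change of 0.56 and did not pass (adjusted p = 0.074), and neither did *Kcnv2*, at -0.52 (adjusted p = 0.10).

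The other members reported did not pass without this library either. Among the *Kcna* and *Kcnd* genes, *Kcna2* had a log2 fold change of -0.69, *Kcna4* of -0.26, *Kcna5* of -0.10, *Kcnd1* of 0.96 and *Kcnd3* of -0.54. *Kcnb2* was at -0.46, *Kcnc1* at -0.71, *Kcnc2* at -0.47 and *Kcnc4* at -0.53. Among the *Kcnq* genes, *Kcnq3* was at -0.67, *Kcnq5* at -0.63 and *Kcnq1* at -0.15. *Kcnh1* was at -0.76, *Kcnh2* at -0.74, *Kcnh6* at -0.07, *Kcnh7* at -0.32 and *Kcnh8* at -0.80, and of the modifiers *Kcng4* was at -0.37, *Kcnf1* at -0.44, *Kcns1* at -0.81, *Kcng2* at -0.41, *Kcns3* at -0.19 and *Kcng1* at 0.29. These log2 fold changes were lower than with all libraries for all but *Kcng4* and *Kcnd1*. That shift follows from the choice of library, since leaving out a low saline library lowers the log2 fold change. For *Kcng4* and *Kcnd1*, saline replicate 1 had a ratio to the mean of the other saline libraries of 1.22 and 1.47.

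Marker genes moved without saline replicate 1 as well, in a fit that called 7.3% of all tested genes lower. The median log2 fold change of the RGC markers went from 0.02 to -0.43, with *Nefl* (-0.82, adjusted p = 0.039) and *Slc17a6* (-0.69, adjusted p = 0.046, edgeR) called lower. The RGC markers *Sncg*, *Rbpms* and *Thy1* went the other way. They stayed higher after microbeads with any single library left out, by at least 0.89, 0.29 and 0.23, and were not called. That of the amacrine cell markers went from -0.39 to -0.64, with 3 of 6 called lower, *Gad1* (-1.02), *Slc32a1* (-0.87) and *Gad2* (-0.72). Of the horizontal cell markers *Lhx1* was called lower (-1.23). The medians went from -0.19 to -0.18 for rods, 0.09 to 0.11 for cones and 0.01 to -0.09 for bipolar cells. For Müller glia they went from -0.39 to -0.58, for endothelium from -0.82 to -0.86 and for pigment epithelium from -0.01 to -0.45. The microglia median rose from -0.86 to -0.15. The part of these markers in the members' values was not tested.

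Other processing called more of the members. DESeq2 called 7 lower, against 8.46% of all genes and 17.0% in either direction, and 2 higher, against 8.58%. Without a filter on low counts edgeR called 7 lower (7.09% of all genes) and 2 higher (4.85%). limma-voom called 2 lower (5.86%) and 1 higher (6.62%). *Kcnab2* was among the lower and *Kcnab3* among the higher in all 3. *Kcna3*, *Kcns2*, *Kcna1*, *Kcna6* and *Kcnv2* were called lower both by DESeq2 and without the filter, beside *Kcnh1* with DESeq2 and *Kcnh5* without the filter. The added lower call of limma-voom was *Kcnv2*.

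Genes that act with these channels were taken from lists of partner subunits and other potassium channels. Of the 52 tested, 2 passed, against 12.8% of all tested genes. An unadjusted p under 0.05 with edgeR was found for 10 of the 52, against 31.4% of all tested genes. Of the 4 *Hcn* genes, whose channels open on hyperpolarization, 1 passed, lower: *Hcn2* stood at 43.1, 57.1 and 64.4 CPM after saline and 16.4, 18.2 and 37.3 CPM after microbeads (log2 fold change -1.20, SE 0.31, adjusted p = 0.039). The next, *Hcn3*, did not pass (0.24, adjusted p = 0.44). *Hcn2* was past the threshold without saline replicate 1 (adjusted p = 0.023) and lost without any other single library, with adjusted p from 0.055 without microbead replicate 3 to 0.12 without microbead replicate 2.

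Of 16 membrane partners of *Kcna* and *Kcnb* channels, 1 passed, higher. This was *Dlg4*, the PSD-95 scaffold, at 653, 615 and 620 CPM after saline and 829, 1052 and 1186 CPM after microbeads (log2 fold change 0.70, SE 0.19, adjusted p = 0.040). It stayed without microbead replicate 1 (0.045) and was lost without any other single library, with adjusted p from 0.055 without saline replicate 1 to 0.15 without microbead replicate 3. *Vapa*, whose product is a tether of the endoplasmic reticulum, followed with no overlap (-0.74, adjusted p = 0.059).

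The other lists had 0 calls. Of 6 partners of *Kcnd* channels, *Kcnip3* (0.55, adjusted p = 0.084) and *Kcnip4* (0.73, adjusted p = 0.16), calcium-binding subunits, had the smallest p and were higher in every microbead library. Among 3 KCNE subunits these were *Kcne4* (-0.88, adjusted p = 0.35) and *Kcne1l* (0.12, adjusted p = 0.85), and among 5 partners of *Kcnq* channels the calmodulin gene *Calm2* (0.43, adjusted p = 0.26) is given. Of 9 calcium- and sodium-activated channels, *Kcnt1* (0.63, adjusted p = 0.16) and *Kcnn1* (-0.59, adjusted p = 0.20) led, and of 9 tandem-pore leak channels *Kcnk3* (-0.65, adjusted p = 0.056) and *Kcnk12* (-1.80, adjusted p = 0.069). All these values are log2 fold changes with edgeR's adjusted p. The median log2 fold change was -0.46 over the leak channels, -0.24 over the *Hcn* genes, -0.27 over the membrane partners, -0.15 over the calcium- and sodium-activated channels, -0.05 over the KCNE subunits, 0.05 over the *Kcnd* partners and 0.11 over the *Kcnq* partners, beside -0.03 over all genes. Without saline replicate 1 these medians were -0.48, -0.35, -0.39, -0.15, -0.11 and -0.19 in the same order, the *Kcnq* partners left out. *Vapa* (-0.83), *Dpp10* (-0.98) and *Kcnk12* (-2.20) were then called lower beside *Hcn2* (-1.35), against 7.3% of all genes.

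Markers of the retinal cell types were read beside the members. For comparison with their calls, 6.31% of all tested genes were called lower and 6.46% higher. The 8 rod genes had 1 call, *Nrl* lower, with a summed level of 61044 to 80898 CPM after saline and 54024 to 67471 CPM after microbeads. Of 6 cone genes 1 was called, *Arr3* higher, and the sums were 1024 to 1236 CPM and 1145 to 1410 CPM. The 8 RGC genes had 0 calls, a median log2 fold change of 0.02 and sums of 326.7 to 1236 CPM and 823 to 1104 CPM. Amacrine cell genes, of which 0 of 6 were called, summed to 635 to 1165 CPM after saline and 679 to 735 CPM after microbeads, and bipolar cell genes, also 0 of 6, to 1161 to 1513 CPM and 1073 to 1458 CPM.

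Müller glia had 2 of 6 genes called lower (3922 to 7922 CPM against 3850 to 4477 CPM) and endothelium 2 of 4 (69.1 to 93.0 CPM against 40.1 to 53.4 CPM). Of the 6 fits with 1 library left out, *Vim* was called in 0, *Cldn5* in 1, *Dkk3* in 2, *Esam* and *Nrl* in 3 and *Arr3* in 5. Horizontal cells (3 genes, 83.7 to 140 CPM against 48.6 to 90.4 CPM), microglia (4 genes, 27.6 to 67.7 CPM against 16.4 to 30.3 CPM) and pigment epithelium (4 genes) had 0 calls, and no defining marker of any list was at 0 in all libraries. The part of these shifts in the members' differences was not tested.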

How the data were processed

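Libraries of poly(A) RNA, 3 from saline-injected and 3 from microbead-injected whole retinas, were read as pairs of 100 bases. Reads were aligned by the authors with STAR 2.5.3a to GRCm38.p5 with the GENCODE vM12 annotation and counted on genes with featureCounts 1.15.2. The deposited values used here are these raw counts. The strand setting and the treatment of multi-mapping reads are not given in the sources used here. The deposited table also holds the authors' DESeq2 1.14 comparison (a mean signal, log2 fold change, linear fold change or ratio, p-value, adjusted p-value and calls), which was not used.

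Low genes were removed with filterByExpr at a minimum count of 10 and a minimum total of 15. After TMM scaling, groups were compared by edgeR 4.0.16 (R 4.3.3), with a two-sided quasi-likelihood test and p-values adjusted after Benjamini and Hochberg across the 17707 genes that remained. An adjusted p-value under 0.05 was called. The step was tested on simulated counts with 200 planted changes. No simulated library was made to stand apart as saline replicate 1 does, so that feature was not covered. SE is the size of the log2 fold change divided by the root of the F statistic. RPKM used exonic lengths, positions and transcripts of GENCODE vM21, which covers 99.5% of the genes. The filter was located by translating the coding sequence and searching for threonine or serine, then valine, isoleucine or leucine, glycine, tyrosine or phenylalanine, and glycine. In the shallowest library 3 counts make 0.22 CPM before scaling, which covers counting error only. No library repeated another: the chi-square per degree of freedom within a group was 22.0 or more.

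From the tables, figures and named results, 4 members and 1 partner gene were left out and are not reported here; they remain in counts over all members. Members and gene lists were chosen with earlier results of these data known. Named were the members called, the 2 with the highest mean CPM in each family (the modifiers taken as 1 family), any without overlap and over 2-fold, the 2 smallest p-values of each partner list, and the members that failed the count rule. *Kcna1*, *Kcna3*, *Kcna6*, *Kcns2*, *Kcnh1*, *Kcnh5*, *Kcnd2*, *Kcnab1* and other members outside this rule were named after their values were seen. As alternatives, the scaling was changed to RLE or upper-quartile or made without mitochondrial genes, the filter was dropped or raised to 10 counts in all libraries, DESeq2 1.42.0 and limma-voom (limma 3.58.1) were run, counts were thinned to 13574949, a replicate block was added, thresholds were made stricter, and each library was left out.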

Additional observations from a re-analysis of the deposited data

How the results depend on the processing

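Both the calls and the signs of some members depended on the processing. Called lower and higher were 7 and 2 members with DESeq2 and again 7 and 2 without a filter on low counts, where 3556 and 3720 of all genes were called (17.0% and 11.9% of those tested). With RLE and upper-quartile scaling, without mitochondrial genes, with a minimum of 10 counts in all 6 libraries and with thinned counts, 2 were higher and 1 lower. limma-voom called 1 higher and 2 lower. An adjusted p-value under 0.05 with a fold change over 2 left 0 members in either direction and 1248 genes in all, and a threshold of 0.01 left 0 members and 87 genes. Leaving out each library in turn gave 0 to 1 members higher, 0 to 8 lower and 46 to 2621 genes in all. The median over the members kept its sign under every alternative fit. The log2 ratios of summed CPM of the *Kcna*, *Kcnab*, *Kcnd*, *Kcnh* and modifier genes were computed only under changed scaling and with each library left out. They kept their sign in all of these.

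*Kcnab2* was past the threshold in 9 of 9 other fits of all libraries and *Kcnab3* in 8 of 9. Replicate numbers were given in accession order and carry no pairing: same-numbered libraries had correlations of -0.02, 0.19 and -0.003. With the replicate block, 0 members were called higher and 1 lower (*Kcnab2*) and 905 genes in all.

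Of the 33 members reported, 11 had a sign that turned under at least 1 alternative, 4 of them with all libraries kept, and the cause was not tested. *Kcna5* was at 0.0036 with RLE scaling, 0.029 with upper-quartile scaling and 0.0065 without mitochondrial genes, *Kcnh6* at 0.012 with upper-quartile scaling, *Kcnh7* at 0.0033 with limma-voom and 0.014 with the replicate block, and *Kcng2* at -0.045 with no filter and -0.12 with thinned counts. With a library left out, the range was -0.10 to 0.031 for *Kcna5*, -0.46 to 0.098 for *Kcnb2*, -0.53 to 0.079 for *Kcnc4*, -0.47 to 0.0030 for *Kcnf1*, -0.48 to 0.55 for *Kcng2*, -0.30 to 0.22 for *Kcnh6*, -0.32 to 0.24 for *Kcnh7*, -0.15 to 0.81 for *Kcnq1*, -0.63 to 0.30 for *Kcnq5*, -0.81 to 0.049 for *Kcns1* and -0.38 to 0.59 for *Kcns3*. The low counts of *Kcnq1*, *Kcng1*, *Kcng2* and *Kcns3* limit what can be seen of them, with fewer than 10 counts in at least 1 library.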
